A study of Bos taurus with 4 samples.

Results

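The genes described here digest and take up sugars in the small intestine. They comprise 4 brush border disaccharidases (SI, MGAM, LCT and TREH), 3 sugar transporters (SLC5A1, SLC2A2 and SLC2A5) and the fructose kinase KHK. These 8 genes were chosen by gene symbol and not by a cut on their values, though earlier results of these data were known. Each had 1 row among the 29792 rows of the count tables, of which 22200 had a read in any library. QuantSeq 3′ mRNA-Seq, which reads the 3′ end of each transcript, was performed on total RNA from Hanwoo cattle, a Korean breed of Bos taurus. There was 1 library each of intestine tissue, of muscle tissue, and of intestinal organoids at P5 and at P10, where P is the passage number. Adult cattle without disease, each past 24 months of age, gave the jejunal crypts from which the organoids grew. The sample records give the same age, past 24 months, for all 4 libraries. The culture used Matrigel as the matrix and IntestiCult, a commercial organoid growth medium. The sources used here do not say how many animals stand behind a library, whether the libraries share an animal, or which wall layers the intestine tissue held.

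Starch and sugars reach the small intestinal surface as short chains and disaccharides. Sucrase-isomaltase (SI) and maltase-glucoamylase (MGAM) split maltose and related glucose chains, SI also splits sucrose, lactase (LCT) splits milk sugar, and trehalase (TREH) splits trehalose. SLC5A1, also called SGLT1, carries glucose and galactose with sodium across the apical membrane, SLC2A5 (GLUT5) carries fructose, and SLC2A2 (GLUT2) is the main basolateral exit for hexoses. KHK phosphorylates fructose inside the cell. In adult ruminants most dietary carbohydrate is fermented in the forestomach, and sucrase activity of the bovine intestine is known to be very low.

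The libraries held 12917720 to 17776273 counted reads. Levels are given as CPM, a gene's reads divided by all counted reads of its library and scaled to 1000000 reads, with the exact 95% Poisson interval. A 3′ library yields about 1 read position per transcript, so CPM was not divided by gene length, and levels are compared between libraries for the same gene. With 1 library per group there was no replicate and no test was possible; intervals cover counting error only and compare these libraries, not the conditions. A count of 0 was given an upper limit of 3 reads, which corresponded to 0.169 to 0.232 CPM. The counts included reads with several alignments, so reads shared between related genes, such as SI with MGAM or SLC5A1 with SLC5A4, could not be told apart. In bulk RNA, fewer cells of a type and less RNA per cell cannot be told apart.

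The labelled tissues were checked against marker lists. Summed skeletal muscle markers (10 genes) were at 43729 CPM in muscle and at 1.97 to 3.38 CPM in the other libraries. Epithelial markers (10 genes) summed to 2217 CPM in intestine, 23.1 in muscle, 11080 at P5 and 10067 at P10. Intestine tissue also carried smooth muscle (2275 CPM), immune (6237 CPM) and endothelial and stromal (916 CPM) markers, whereas each of these lists summed to between 2.59 and 12.6 CPM in the organoids. The enterocyte list (12 genes of the mature absorptive cell, none of them among the 8 genes) summed to 33419 CPM in intestine, 7112 at P5 and 1002 at P10. Of its genes, ALPI had 0 reads at P5, and ALPI, APOA1 and APOA4 had 0 reads at P10.

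By CPM, SI and MGAM were the only members above the intestine level in an organoid library, and this was so at P5 alone; relative to summed epithelial markers both lay below it. SI was at 129 CPM (123 to 134) in intestine, 4.10 (3.07 to 5.37) in muscle, 457 (445 to 468) at P5 and 45.0 (41.9 to 48.2) at P10. MGAM was at 154 CPM (148 to 160) in intestine, 2.63 (1.82 to 3.68) in muscle, 597 (584 to 610) at P5 and 10.2 (8.78 to 11.8) at P10. Both genes thus followed the order P5 organoids, intestine, P10 organoids, muscle, and no neighbouring intervals in that order overlapped. At P5, SI was 3.55-fold above intestine (ratio interval 3.38 to 3.72) and MGAM 3.88-fold above it (3.71 to 4.05). Relative to the summed epithelial markers, which were also higher at P5, the log2 ratios turned to -0.49 for SI and -0.37 for MGAM, whereas relative to the epithelial genes VIL1 or EPCAM alone both stayed above 0. At P10, SI was 2.86-fold lower than in intestine and MGAM 15.1-fold lower. Between the organoid libraries SI was 10.2-fold lower at P10 (9.43 to 10.9) and MGAM 58.5-fold lower (50.5 to 68.1).

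**Figure D1:**
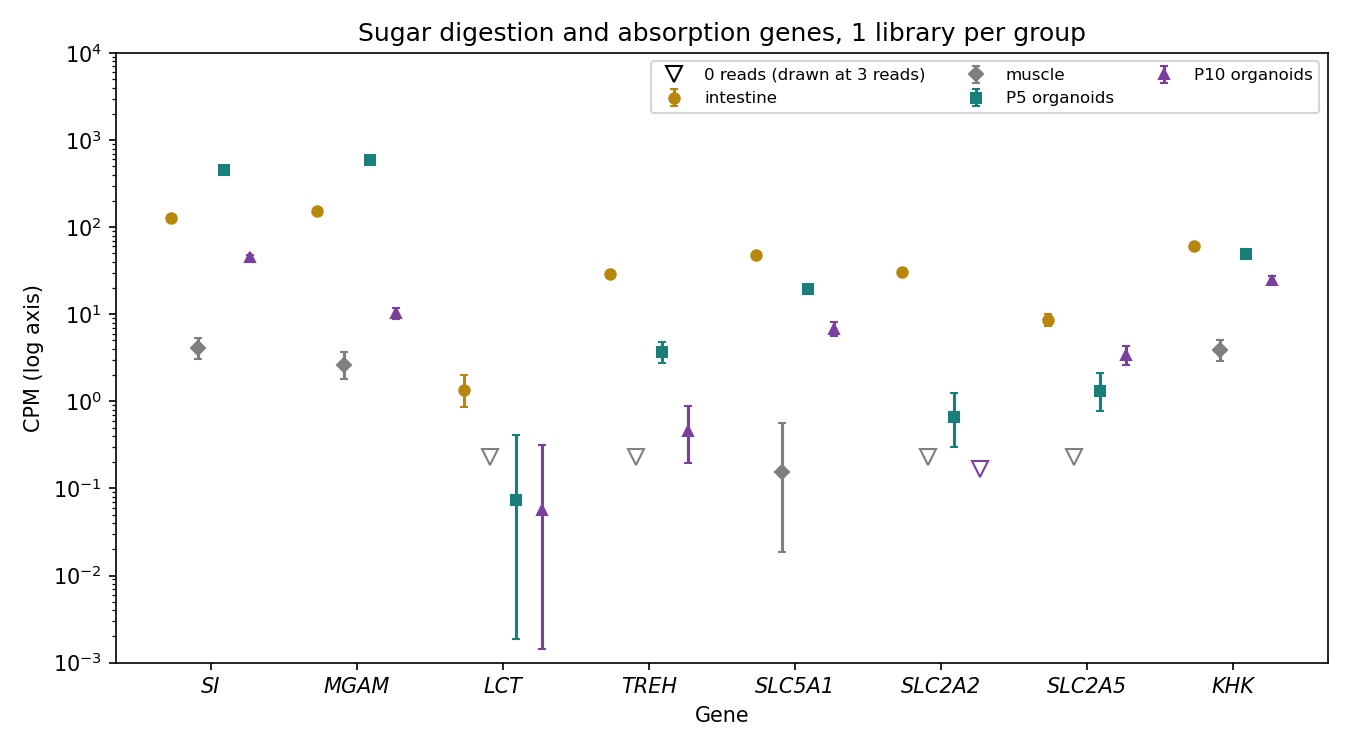
Level of each of the 8 genes in the 4 libraries, in CPM on a log axis, with exact 95% Poisson intervals that are smaller than the markers where counts are high; libraries with 0 reads are drawn at the limit of 3 reads. By CPM, SI and MGAM are highest in P5 organoids, though not relative to the summed epithelial list, and the other 6 genes are highest in intestine.

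LCT and TREH, the lactose and trehalose enzymes, had their highest level in intestine. LCT was the rarest member, with 24 reads in intestine (1.35 CPM, 0.865 to 2.01), 0 in muscle, 1 at P5 and 1 at P10. The intervals of both organoid libraries and of muscle overlapped, so no order among these 3 could be read at this depth. LCT was 18.4-fold lower in P5 organoids than in intestine (2.99 to 755) and 23.9-fold lower in P10 organoids (3.90 to 984), with wide intervals because 1 read stands on one side. TREH was at 28.7 CPM (26.3 to 31.4) in intestine, 3.68 (2.73 to 4.85) at P5 and 0.451 (0.195 to 0.889) at P10, and had 0 reads in muscle. TREH was thereby 7.82-fold lower in P5 organoids than in intestine (5.84 to 10.7), 63.7-fold lower in P10 organoids, and 8.15-fold lower in P10 than in P5 organoids, where P10 had 8 reads. The P10 interval of TREH overlapped the limit in muscle.

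By CPM, the 3 transporters were all below intestine in both organoid libraries, whereas relative to the enterocyte list SLC5A1 lay above it at P5 and P10 and SLC2A5 at P10. SLC5A1 was at 47.6 CPM (44.5 to 51.0) in intestine, 0.155 (0.0188 to 0.559) in muscle, 19.3 (17.0 to 21.7) at P5 and 6.82 (5.66 to 8.15) at P10, and no intervals overlapped. This sodium-coupled transporter was 2.47-fold lower in P5 organoids than in intestine (2.15 to 2.85) and 6.98-fold lower in P10 organoids. SLC2A2 was at 30.3 CPM (27.8 to 33.0) in intestine and 0.662 (0.303 to 1.26) in P5 organoids, with 9 reads there and 0 reads in P10 organoids and in muscle. The basolateral exit transporter was therefore 45.8-fold lower in P5 organoids than in intestine (24.0 to 101). With the 0 reads of P10 organoids set to 3, it was 179-fold lower there, a value without an interval. Between the organoid libraries its 9 and 0 reads were too few for a comparison.

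SLC2A5, the fructose transporter, was, by CPM, the only member higher at P10 than at P5. It had 8.66 CPM (7.35 to 10.1) in intestine, 0 reads in muscle, 1.32 CPM (0.784 to 2.09) at P5 and 3.38 (2.58 to 4.36) at P10. These 18 and 60 reads gave a 2.56-fold higher level at P10 (1.49 to 4.60). Against intestine, SLC2A5 was 6.55-fold lower in P5 organoids (4.01 to 11.3) and 2.56-fold lower in P10 organoids (1.89 to 3.51). Its order was intestine, P10 organoids, P5 organoids, muscle, without overlapping neighbours.

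KHK, which acts on fructose after uptake, varied least by CPM among the organoid and intestine libraries. It was at 60.6 CPM (57.1 to 64.4) in intestine, 3.87 (2.87 to 5.10) in muscle, 48.6 (45.0 to 52.5) at P5 and 25.0 (22.8 to 27.5) at P10. The gene was 1.25-fold lower in P5 organoids than in intestine (1.13 to 1.38), 2.42-fold lower in P10 organoids, and 1.94-fold lower in P10 than in P5 organoids (1.72 to 2.19).

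Counted together, members at least 2-fold apart that had 10 reads or more in whichever library was higher were set beside all rows that met the same read minimum. In P5 organoids against intestine, 2 of 8 members were higher and 5 were lower, beside 21.5% higher and 24.8% lower of 17783 rows, and the members' median log2 ratio was -2.01 beside 0.089 for all rows. In P10 organoids against intestine, 0 members were higher and 8 were lower, beside 26.8% and 28.4% of 17803 rows, with medians of -3.36 and 0.12. In P10 against P5 organoids, 6 members had enough reads; 1 was higher (SLC2A5) and 4 were lower (SI, MGAM, TREH and SLC5A1), beside 18.3% and 18.0% of 16131 rows, with medians of -2.26 and 0.12. Counts of 0 entered the medians as 3 reads. These comparisons share the intestine and P5 libraries and so are not independent of each other.

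**Figure D2:**
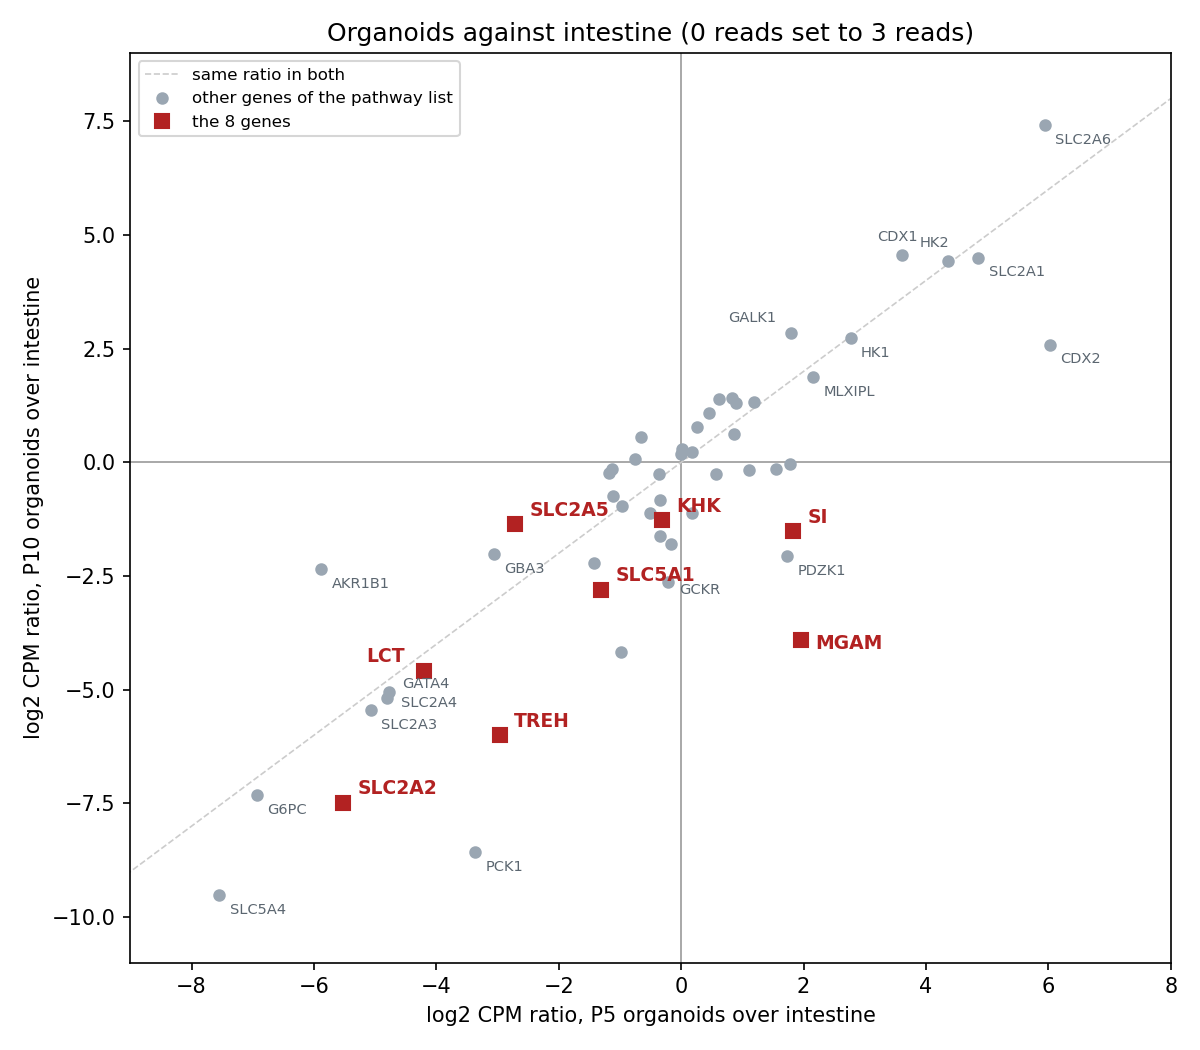
log2 CPM ratio of P5 organoids over intestine (horizontal axis) against P10 organoids over intestine (vertical axis) for the 8 genes (squares) and other genes of the sugar pathway list (circles), with counts of 0 set to 3 reads; the dashed line marks the same ratio in both, and both axes share the intestine library. By CPM, SI and MGAM lie to the right of 0 at P5 (left of it relative to the epithelial list) and below 0 at P10, and the other 6 genes lie below 0 on both axes.

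Marker lists of cell states also differed between the libraries, in both directions. From P5 to P10, the summed enterocyte list was lower, with 11 of 11 genes tested at least 2-fold lower, beside 18.0% of all rows. The proliferation list (10 genes) was at 173 CPM in intestine, 717 at P5 and 1302 at P10, and the stem and crypt list (6 genes) at 233, 852 and 3222 CPM. At P10, 1 stem and crypt gene held 1933 CPM of that sum. Between the passages 4 of the 6 were at least 2-fold higher and 1 was lower at P10, beside 18.3% and 18.0% of all rows. The goblet cell list (6 genes) was at 7371, 1753 and 1320 CPM. At P5 against intestine, 9 of 10 proliferation genes were at least 2-fold higher and 5 of 6 goblet genes were lower. All rows were 21.5% higher and 24.8% lower. Against intestine, 7 of 12 enterocyte genes were at least 2-fold lower in P5 organoids and 9 of 12 in P10 organoids, beside 24.8% and 28.4% of all rows. At P5, 2 were higher, beside 21.5%. The part of these cell types in the members' values was not tested. Enteroendocrine markers (6 genes) were at 493 CPM in intestine and 4.41 and 5.36 CPM in P5 and P10 organoids, and liver and kidney markers (4 genes) stayed at 3.26 CPM or less in every library.

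Expressed per 1000 reads of the epithelial list, SI was at 58.1 in intestine, 41.2 at P5 and 4.47 at P10, and MGAM at 69.4, 53.9 and 1.01. On this scale, 6 members were at least 2-fold lower in P5 organoids than in intestine and 0 were higher, while all 8 were lower in P10 organoids. No share of all rows was computed on marker scales. A difference in a list's own level moves the ratio of every row. The epithelial list was at 2217 CPM in intestine, 11080 at P5 and 10067 at P10, and the enterocyte list at 33419, 7112 and 1002 CPM. The highest epithelial gene in each library held 781, 4168 and 4082 CPM of these sums. The highest enterocyte gene held 19239, 2347 and 684 CPM, so ratios to a list lean on few genes. Of the 10 epithelial genes, 10 were at least 2-fold higher at P5 than in intestine, beside 21.5% of all rows. At P10 the count was 5, beside 26.8%. Relative to the enterocyte list, in contrast, SI was above intestine by 4.06 at P5 and 3.54 at P10 on the log2 scale, and MGAM by 4.19 and 1.15. SLC5A1 (0.93 and 2.26) and KHK (1.91 and 3.78) were also above intestine on that scale. LCT (-1.97 and 0.48) and SLC2A5 (-0.48 and 3.70) were below intestine at P5 and above it at P10, and TREH and SLC2A2 were below it in both. For LCT this rests on 1 read in each organoid library, so no direction can be read from it. From P5 to P10 the log2 ratio was then -0.52 for SI, -3.04 for MGAM and -0.20 for TREH, whereas SLC5A1 and KHK turned to higher levels at P10 (log2 ratios 1.33 and 1.87). SLC2A5 was higher at P10 with either list, by 1.49 and 4.18 on the log2 scale.

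**Figure D3:**
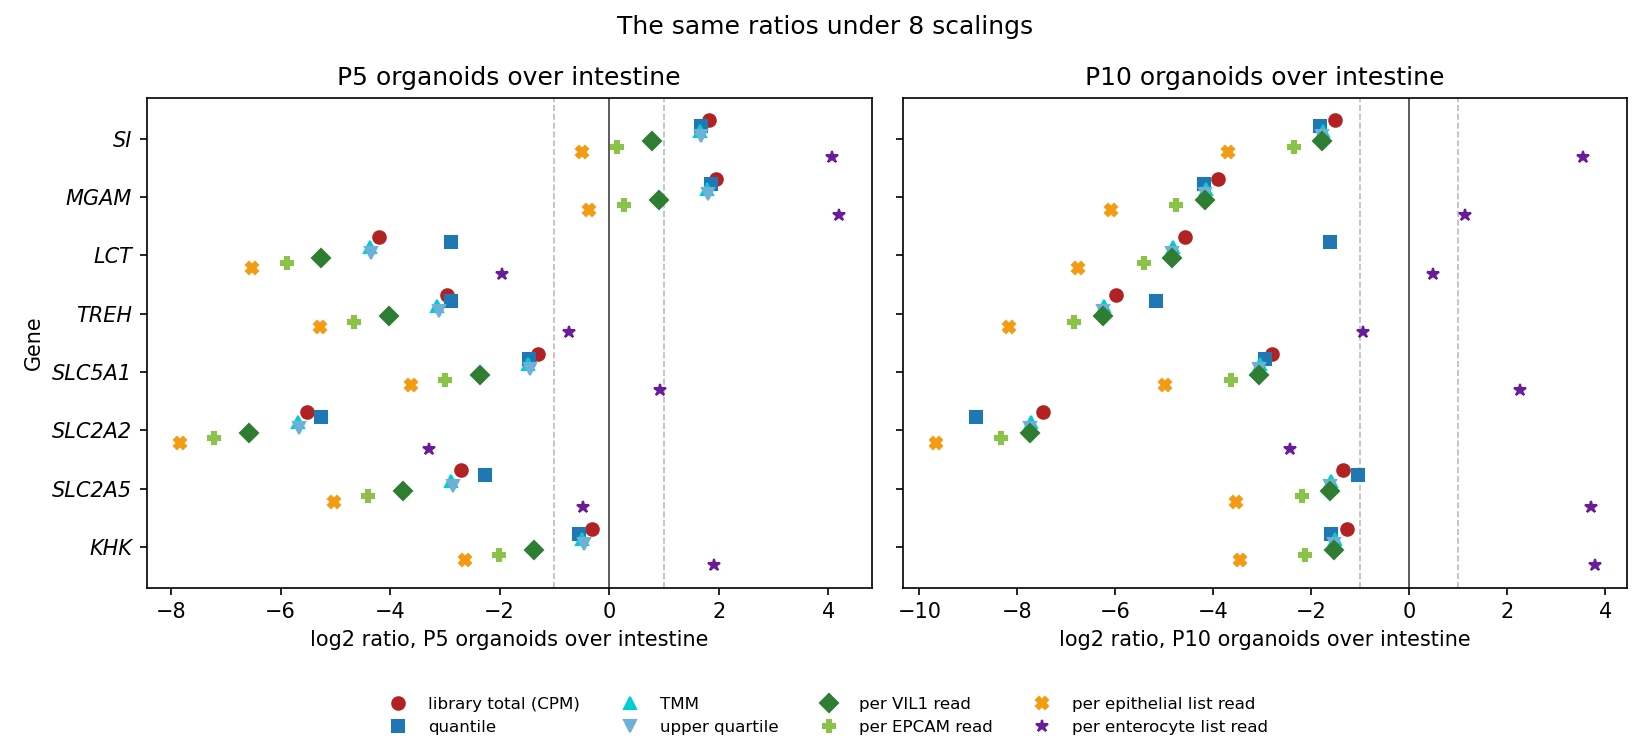
log2 ratio (horizontal axis) of each of the 8 genes over intestine at P5 (left) and P10 (right) under 8 ways of scaling the libraries, with dashed lines at 2-fold. At P5, SI and MGAM lie below 0 relative to the epithelial list and above 0 under the other scalings. At P10 all 8 genes lie below 0 except 6 of them relative to the enterocyte list, where LCT rests on 1 read.

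The mix of the 8 genes' reads differed between the libraries. The members had 8176 reads in intestine (460 CPM), 15329 at P5 (1127 CPM), 1612 at P10 (90.9 CPM) and 139 in muscle (10.8 CPM). SI and MGAM together made up 61.4% of these reads in intestine, 93.5% at P5 and 60.7% at P10. Within that pair, SI accounted for 45.6% (exact binomial interval 44.2 to 46.9) in intestine and 43.3% (42.5 to 44.2) in P5 organoids, but 81.5% (78.9 to 83.9) in P10 organoids. The pair was thus close to evenly mixed in intestine and P5 organoids and mostly SI at P10. The 3 transporters held 18.8%, 1.89% and 11.2% of the members' reads in intestine, P5 and P10 organoids, and KHK held 13.2%, 4.31% and 27.5%. Among the transporters' reads, SLC5A1 held 55% in intestine, 90.7% at P5 and 66.9% at P10, SLC2A2 was at 35%, 3.11% and 0%, and SLC2A5 at 10%, 6.23% and 33.1%.

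**Figure D4:**
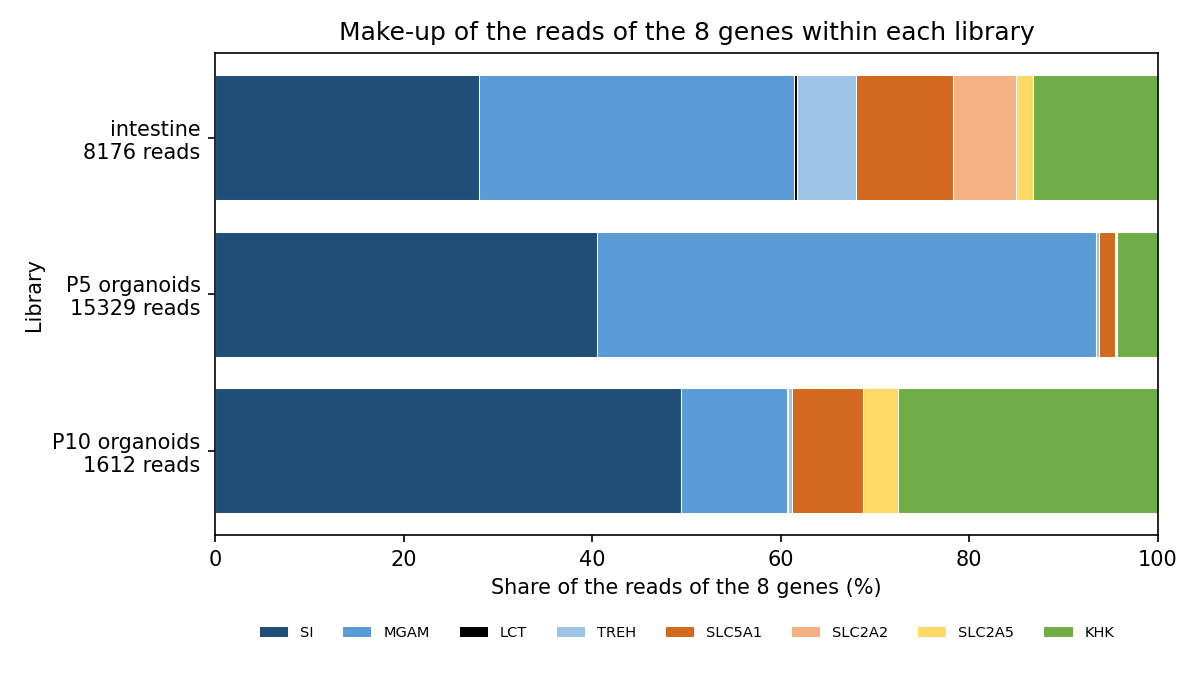
Share of the 8 genes' reads that each gene held in intestine, P5 organoids and P10 organoids, in percent, as stacked horizontal bars that add to 100%. SI and MGAM fill 93.5% of the bar in P5 organoids, and KHK and SI take most of the bar in P10 organoids.

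All 8 members were at least 2-fold higher in intestine than in muscle, beside 57.1% of 17559 rows, and 0 were lower, beside 11.5%. By CPM, 83.2% of the calls of all rows were on the intestine side, against 54.5% after quantile normalisation, 60.0% with TMM and 54.8% with upper-quartile library sizes. The median log2 ratio of all rows was 1.31 by CPM, 0.08 after quantile normalisation, 0.29 with TMM and 0.13 with upper-quartile sizes, and that of the members was 5.55 by CPM. SI was 31.4-fold higher in intestine, MGAM 58.5-fold, KHK 15.7-fold and SLC5A1 308-fold (84.9 to 2545). With 0 muscle reads set to 3, the 4 members without a muscle read were 5.81-fold (LCT), 37.3-fold (SLC2A5), 124-fold (TREH) and 131-fold (SLC2A2) higher. These 4 values have no interval. The muscle level was 3.19% of the intestine level for SI, 1.71% for MGAM, 6.38% for KHK and 0.32% for SLC5A1. Over 28 gut markers that share ran from 0 to 167%, with a median of 0.438%, and CDH1 and ANPEP were the markers at or above SI. Whether the muscle reads of the members come from muscle cells was not tested. The ribosomal gene RN18S1 took 23.6% of the muscle reads and 4.08% of the intestine reads.

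The wider sugar pathway was described with a list of 57 symbols, of which 55 were in the tables. In P5 organoids against intestine, 19 of 53 genes with enough reads were at least 2-fold higher and 12 were lower, with a median log2 ratio of 0.17. The counts were 17 higher and 17 lower of 51 in P10 organoids against intestine (median -0.14), 6 higher and 14 lower of 48 in P10 against P5 organoids (median 0.035), and 36 higher and 5 lower of 48 in intestine against muscle (median 2.89). In that order, the list's shares higher and lower were 35.8% and 22.6%, 33.3% and 33.3%, 12.5% and 29.2%, and 75% and 10.4%. Those of all rows were 21.5% and 24.8%, 26.8% and 28.4%, 18.3% and 18.0%, and 57.1% and 11.5%. The shares lower at P5 against intestine and in intestine against muscle were thus near those of all rows.

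Among the facilitative hexose transporters, the widely expressed glucose transporter SLC2A1 was at 3.94 CPM in intestine, 114 at P5 and 89.3 at P10. SLC2A6 was at 0.338, 20.7 and 57.8 CPM in the same order. SLC2A3, a glucose transporter typical of neurons and blood cells, was at 7.43 CPM in intestine with 0 reads in both organoid libraries, and the insulin-responsive transporter SLC2A4 was at 6.19 CPM in intestine, 66.6 in muscle and 0 reads in the organoids. These transporters thus showed both directions, while SLC2A2 and SLC2A5 were lower in both organoid libraries than in intestine.

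Among the sodium-coupled carriers, SLC5A4 was at 41.3 CPM in intestine, 0.221 at P5 (3 reads) and 0.0564 at P10 (1 read). Of 6 such list genes with enough reads, 2 were at least 2-fold higher, 2 lower and 2 within 2-fold at P5 against intestine. All rows were 21.5% higher and 24.8% lower. At P10, 0 of 5 were higher, 1 was lower and 4 were within 2-fold, beside 26.8% higher and 28.4% lower of all rows. SLC5A1 held 53.6% of the reads of SLC5A1 and SLC5A4 in intestine, 98.9% in P5 and 99.2% in P10 organoids. PDZK1, a scaffold protein of the brush border, was at 54.6, 182 and 13.1 CPM, the same order across intestine, P5 and P10 organoids as SI and MGAM. GBA3, a cytosolic beta-glucosidase, was at 30.0, 3.60 and 7.44 CPM.

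Downstream of uptake, AKR1B1, the aldose reductase of the polyol route to fructose, was at 4.33 CPM in intestine, 0.0735 at P5 and 0.846 at P10. GALK1, the galactokinase of galactose use, was at 9.17, 31.8 and 66.0 CPM, higher in each organoid library than in intestine. Of the 4 galactose genes, 2 were at least 2-fold higher and 2 lower in P5 organoids against intestine, beside 21.5% and 24.8% of all rows. In P10 organoids, 2 were higher, 0 lower and 2 within 2-fold, beside 26.8% higher and 28.4% lower of all rows. Of the 5 fructose genes with enough reads, 0 were at least 2-fold higher and 1 was lower in P5 organoids against intestine, a share lower that is near the 24.8% of all rows, and 0 and 3 in P10 organoids, beside 26.8% and 28.4% of all rows.

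The hexokinases HK1 (18.7, 128 and 125 CPM in intestine, P5 and P10 organoids) and HK2 (9.79, 202 and 210 CPM) phosphorylate glucose and were higher in the organoids. G6PC, the glucose-6-phosphatase, was at 26.9 CPM in intestine, 0.221 in P5 and 0 reads in P10 organoids, and PCK1, of gluconeogenesis, at 64.2, 6.25 CPM and 0 reads. Of 9 genes of glucose phosphorylation and release with enough reads, 2 were at least 2-fold higher and 3 lower at P5 against intestine. The other 4 were within 2-fold. These shares were near the 21.5% and 24.8% of all rows. At P10, 2 were higher and 5 lower, beside 26.8% and 28.4% of all rows, with 2 within 2-fold. GCKR, the glucokinase regulator, was at 3.49, 3.01 and 0.564 CPM.

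Of 12 regulators with enough reads, 9 were at least 2-fold higher and 1 was lower in P5 organoids against intestine, beside 21.5% and 24.8% of all rows. At P10 against intestine 7 of 11 were higher and 2 were lower, beside 26.8% and 28.4%, and between the passages 0 of 12 were higher and 4 were lower at P10, beside 18.3% and 18.0%. MLXIPL, the carbohydrate response factor ChREBP, was at 37.2, 166 and 136 CPM, and the intestinal transcription factor CDX1 at 6.30, 76.5 and 147 CPM. CDX2, which is known to act on the SI promoter, was at 0.225, 14.6 and 1.35 CPM, with 4 reads in intestine. GATA4, a factor of the proximal small intestine, was the one at least 2-fold lower at P5, at 164, 6.03 and 4.96 CPM.

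**Figure D5:**
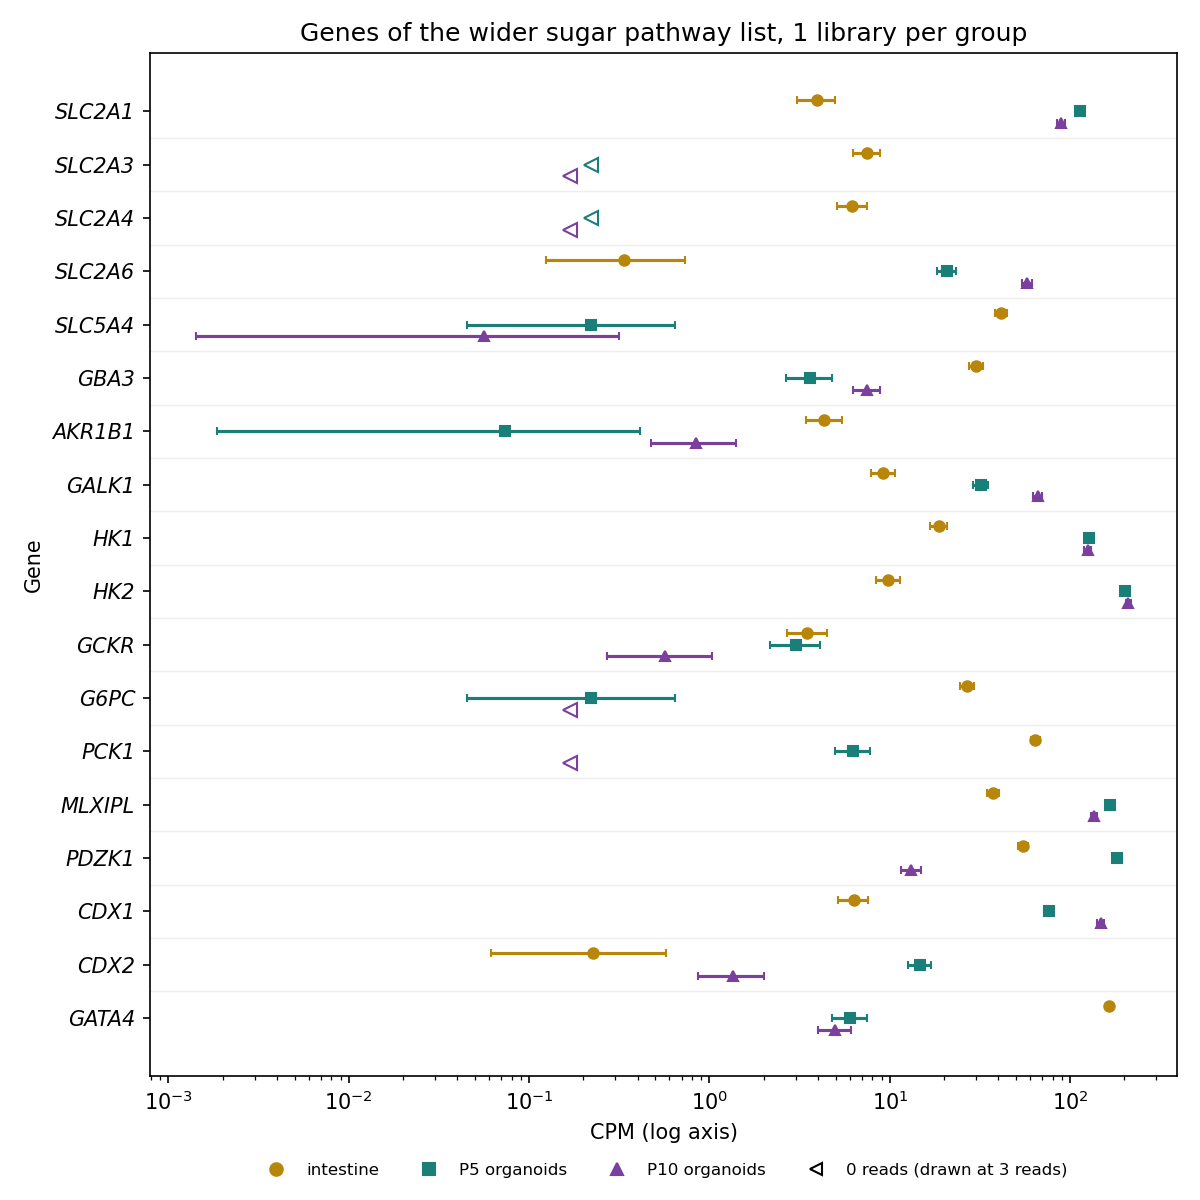
CPM, on a log axis, of genes of the sugar pathway list in intestine, P5 organoids and P10 organoids, with exact 95% Poisson intervals and counts of 0 drawn at the limit of 3 reads. SLC2A1, HK2 and CDX1 are above intestine in both organoid libraries, and SLC5A4, G6PC and GATA4 are below.

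The genes nearest in pattern to each member were found among 13390 genes with at least 100 reads in their highest library, by Euclidean distance over the 4 libraries of log2 quantile-normalised values centred on each gene's mean. The nearest to SI were EDN3 (distance 0.61), TMEM236 (0.73) and NRCAM (0.77), and to MGAM TRIM40 (0.80), LOC527068 (1.09) and NXPE2 (1.11). TREH lay nearest to GUCA2B (0.50), SLC9A3 (0.75) and BST1 (1.11), and SLC5A1 to MMP12 (0.26), SLC46A1 (0.30) and TFF3 (0.40). SLC2A2 lay nearest to MSMB (0.41), TNFRSF17 (0.55) and APOC2 (0.68), SLC2A5 to TUBB4A (0.45), MST1 (0.51) and KCP (0.56), and KHK to C20H5orf34 (0.12), PARP12 (0.15) and GDE1 (0.15). With 4 points per gene, such distances describe these libraries only. LCT, with under 100 reads, was not placed. Among the members themselves, TREH and SLC5A1 were closest (1.72), SI and MGAM were 2.01 apart, and SLC2A2 and SLC2A5 were farthest apart (5.73).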

How the data were processed

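RNA from 4 bovine samples was profiled by QuantSeq 3′ mRNA-Seq, with 1 library per group. The authors aligned the reads with Bowtie2 and counted unique and multiple alignments per gene with Bedtools coverage; edgeR is also named in the submitters' processing notes. The deposited values are whole-number counts without normalisation, and the genome build is not given in the sources used here. No sequences were used, so promoter motifs were not analysed here, and the RefSeq table of ARS-UCD2.0 served only to find which gene neighbours MGAM.

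Counts were divided by library totals (CPM). The study names quantile normalisation, which was run as an alternative because 1 read then has a different value in each library and no exact counting interval. Exact Poisson intervals were used for levels and exact conditional binomial intervals for ratios, at the 95% level; they cover counting error only. Counts of 0 were set to 3 reads in ratios, and no ratio was given where both counts were 3 or fewer. Ratios with a count of 0 have no interval and leave out the counting error of the other library. A gene was counted at a 2-fold difference given 10 reads or more in whichever library was higher. Each row was treated as a gene. Without replicates no p-value was computed.

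The 8 genes and all lists were chosen with earlier results of these data known. All 8 were named, as were pathway genes at least 4-fold apart between intestine and either organoid library, or between passages, with at least 50 reads, and the 3 genes nearest in pattern to each member. Of the pathway genes this rule takes, 4 are not reported here. G6PC1 was found as G6PC; MGAM2 and RSC1A1 were not analysed here. Alternatives were quantile normalisation, TMM and upper-quartile library sizes, totals without RN18S1, a pseudocount of 1 CPM, summed rows, folds of 1.5 and 4, other read minimums and marker denominators. Scripts were checked on simulated counts. Python 3.11.15, scipy 1.17.1, R 4.3.3 and edgeR 4.0.16 were used.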

Additional observations from a re-analysis of the deposited data

Results flagged for a closer look

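Among the members and named pathway genes, 3 were above the intestine level by CPM at P5 and below it at P10. The genes listed above as nearest in pattern to SI and to MGAM, picked for that likeness, were so too. Of these, EDN3 was at 64.1 CPM in intestine, 230 at P5 and 21.9 at P10, and NXPE2 at 11.4, 13.9 and 0.113 CPM. The log2 CPM ratio of SI was 1.83 in P5 organoids against intestine and -1.52 in P10 organoids against intestine. For MGAM the values were 1.96 and -3.91, and for PDZK1 1.73 and -2.06. The difference between the passages was not tested, since there was 1 library of each, and both ratios use the same intestine library. Relative to the summed epithelial markers, SI and MGAM lay below intestine at P5 as well (log2 ratios -0.49 and -0.37), but not relative to VIL1 or EPCAM alone.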

How the results depend on the processing

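Of 186 values of the 8 genes under alternative settings, 130 were counted as unmoved, 56 as moved and 0 changed sign. The measure was the counting interval of the ratio. Ratios with a count of 0 have no such interval, so for them this split cannot be read. Marker denominators, which turned some directions as given above, are not among the 186 values. With a 4-fold in place of a 2-fold difference, the members counted were 0 higher in P5 organoids against intestine (2 before), 5 lower in P10 organoids against intestine (8) and 0 higher in P10 against P5 organoids (1). The pathway list then gave 10 higher at P5 (19) and 11 higher at P10 (17) against intestine, 1 higher (6) and 7 lower (14) between passages, and 1 lower in intestine against muscle (5). With a 1.5-fold difference it gave 14 higher between passages. With log2(CPM + 1), 0 members and 3 pathway genes were higher between passages, and after quantile normalisation 9 pathway genes were lower in intestine than in muscle. With the enterocyte in place of the epithelial list, the members were 3 higher and 2 lower at P5 against intestine (0 and 6 before), 5 and 1 at P10 (0 and 8) and 3 and 1 between passages (1 and 4). The share of all rows was not computed with either list. Members lower at P10 than at P5 became 5 with TMM, upper-quartile, quantile or RN18S1-free scaling, as KHK passed 2-fold. Per VIL1 or EPCAM read, chosen after seeing the data, SI lay above intestine at P5 by 0.77 and 0.13 and MGAM by 0.90 and 0.26 on the log2 scale.

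Over all rows, intestine against muscle gave 10023 higher and 2023 lower by CPM, 5680 and 4741 after quantile normalisation, 6075 and 4045 with TMM and 5537 and 4568 with upper-quartile sizes. At 4-fold the counts were 1633 higher and 2846 lower at P5 (3822 and 4419 at 2-fold), 2119 higher at P10 (4773), 863 and 1517 between passages (2946 and 2910) and 6110 and 1252 against muscle. At 1.5-fold, 5762 were higher at P5 and 5001 between passages. With 50 reads, 2909, 3305 and 1522 were lower at P5, P10 (5053) and between passages, and log2(CPM + 1) gave 1938 lower between passages. No paired analysis was possible because each group had 1 library, and no library could be left out. Depth limited LCT, SLC2A2 in organoids, TREH at P10, and LCT, TREH and the 3 transporters in muscle.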

Other observations

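The row LOC100296901, which neighbours MGAM in the RefSeq annotation of ARS-UCD2.0 and was chosen after its values were seen, had 673 reads in intestine (37.9 CPM), 16 in muscle (1.24 CPM), 2205 in P5 organoids (162 CPM) and 893 in P10 organoids (50.4 CPM). Its level was highest in P5 organoids, as for SI and MGAM, and its P10 level was above that of intestine, unlike theirs. Reads with several alignments were counted, and whether the row shares reads with MGAM was not tested.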
